A study of Mus musculus with 2 samples.

Results

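The 10 genes described here write or erase DNA methylation or form Polycomb repressive complex 2 (PRC2), and were followed through the cells of 2 single-cell libraries, 1 of induced myogenic progenitor cells (iMPCs) and 1 of mouse embryonic fibroblasts (MEFs). The 10 members were taken by gene symbol, out of 26100 genes listed in both libraries: the DNA methyltransferases Dnmt1, Dnmt3a and Dnmt3b, the methylcytosine dioxygenases Tet1, Tet2 and Tet3, and the PRC2 genes Ezh1, Ezh2, Eed and Suz12. Both libraries carry the genotype label Tg:Pax7-nGFP/C57BL6;DBA2, a Pax7 reporter background, and have embryonic fibroblasts as their source. The MEF sample was cultured in MEF media. The iMPC sample was made by treatment with MyoD, the myogenic transcription factor, plus F/R/C, an abbreviation of the labels, and was kept in medium with F/R/C. The series describes the iMPCs as 1 stable clone, so they stand for 1 line. The labels state no age, dose or time. Each group is 1 library, so no comparison below has a replicate check, no p-value is given, and every interval covers counting error only.

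DNA methylation in mammals is laid down anew by DNMT3A and DNMT3B and copied onto the new strand behind the replication fork by DNMT1, which the hemimethyl-binding protein UHRF1 brings there. The TET enzymes oxidise methylcytosine and so start its removal. PRC2 trimethylates lysine 27 of histone H3 through EZH2 or its paralog EZH1, and needs EED and SUZ12 for activity. In muscle, PRC2 is known for holding muscle genes silent in progenitors, and EZH2 is known to be lost as muscle cells differentiate.

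The matrices hold unique molecular identifiers (UMIs), which count captured RNA molecules. The MEF cells numbered 6047 with a median of 18973 UMIs, and the iMPC cells, taken at 8036 UMIs or more, numbered 9349 with a median of 20846. The iMPC cells were divided by UMIs of single genes: 892 cells with Pax7 but no Myog and no Top2a UMI (called Top2a-free Pax7+ cells), 994 with Pax7, no Myog and at least 3 Top2a UMIs (cycling Pax7+ cells), 1724 with at least 5 Myog and at most 1 Ckm UMI (Myog-high), 1037 with at least 5 Ckm UMIs (Ckm-high) and 553 with at least 5 Dcn UMIs (Dcn-high). Pax7 marks muscle stem cells, Myog committed muscle cells, Ckm differentiated muscle, Dcn fibroblasts and Top2a dividing cells. The MEF cells were likewise divided into 5268 with no Top2a UMI and 390 with at least 3. Top2a-free classes were shallower than cycling ones, with a median of 14938.5 against 23187 UMIs in Pax7+ cells and 18162.5 against 25552 in MEF. What part depth has in these splits was not tested. These rules leave 45.8% of iMPC cells in no class, and 77 cells are both Dcn-high and Top2a-free Pax7+. The classes are ranges of a count and not cell types.

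Markers were summed over fixed lists, which include the genes Pax7, Myog, Ckm and Dcn that define the classes. Part of each class's own sum was thus set by its rule. In MEF, Pax7 stood at 0.0169 CPM (UMIs of the gene in 1000000 UMIs) and no Ckm UMI was counted, while the 8 fibroblast markers summed to 6397 CPM. The 10 satellite cell markers summed to 818 CPM in Top2a-free Pax7+ cells, with Chodl at 0, and to 378 CPM in MEF. The same Pax7+ cells held more of the fibroblast markers (2010 CPM) and of the myocyte markers (1059 CPM), and what part this has in the contrasts below was not tested. Myocyte markers summed to 48349 CPM in Ckm-high cells. Dcn-high cells held 5178 CPM of the fibroblast markers, with 1162 CPM from Dcn itself. They also held 4350 CPM of the myocyte markers, of which MEF held 95.8 CPM. Among the Dcn-high cells, 18 were also Ckm-high and 18 were also Myog-high. What part these shared cells, or RNA from outside the cells, have in the myocyte sum was not tested. The sum thus does not show that Dcn-high cells at large expressed muscle genes. The MEF library held 9863 CPM of the smooth muscle markers, against 311 to 858 CPM in the iMPC classes. The endothelial and immune lists stayed at or below 3.48 CPM in every class, the epithelial list reached 14.5 CPM in MEF and the glia list 13.0 CPM in Dcn-high cells. The iMPC library had many more dividing cells: 34.4% of its cells carried at least 3 Top2a UMIs, against 6.45% of MEF cells. A list of 41 replication and mitosis genes, called the cycle list here, which holds no member, summed to 1919 CPM in iMPC and 738 CPM in MEF. Cells without a Top2a UMI were not equally quiet: the cycle list summed to 673 CPM in Top2a-free Pax7+ cells and 294 CPM in Top2a-free MEF.

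Before the levels, the start regions of a few members are shown. Dnmt1, Ezh2 and Suz12 were higher in cycling than in Top2a-free cells of both libraries, and Ezh1 was lower. Eed was also higher in both and is not shown. A link between these letters and the levels was not tested. The stretches are RefSeq promoter windows on GRCm38.p6, read 5′ to 3′ on the gene's strand, of up to 250 bases before a transcript start. Capitals mark a match to 1 of 4 letter strings of the kind bound by E2F factors, which drive replication genes: TTTCCCGC, TTTGGCGC, TTTCGCGC and TTTGCCGC, searched on both strands. For Dnmt1 only 30 bases around the match are given, at chr9:20952824-20952853 on the minus strand. These bases are annotated as untranslated sequence within the first exon of another Dnmt1 transcript. For Suz12 the whole window is given, at chr11:79992856-79993105 on the plus strand. For Ezh2 the 125 bases of the window that lie in no annotated exon are given, at chr6:47595059-47595183 on the minus strand, and for Ezh1 the whole window, at chr11:101226464-101226713 on the minus strand.
Dnmt1: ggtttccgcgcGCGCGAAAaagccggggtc
Suz12: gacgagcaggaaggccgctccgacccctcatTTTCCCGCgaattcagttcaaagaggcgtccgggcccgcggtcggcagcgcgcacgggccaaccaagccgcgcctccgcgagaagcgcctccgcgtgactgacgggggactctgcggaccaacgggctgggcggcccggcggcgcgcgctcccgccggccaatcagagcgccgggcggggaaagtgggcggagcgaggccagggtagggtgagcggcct
Ezh2: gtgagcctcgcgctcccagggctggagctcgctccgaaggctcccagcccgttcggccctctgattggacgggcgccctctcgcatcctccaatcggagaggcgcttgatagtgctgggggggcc
Ezh1: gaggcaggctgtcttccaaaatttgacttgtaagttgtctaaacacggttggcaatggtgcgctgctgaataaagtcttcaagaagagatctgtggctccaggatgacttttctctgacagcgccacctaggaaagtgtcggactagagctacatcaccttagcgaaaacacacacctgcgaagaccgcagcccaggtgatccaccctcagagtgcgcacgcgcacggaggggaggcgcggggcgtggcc

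By GENCODE M21, on GRCm38, the gene Dnmt1 lies at chr9:20907209-20959888 (minus strand), Tet2 at chr3:133463679-133545139 (minus), Ezh2 at chr6:47530139-47595341 (minus), Suz12 at chr11:79993106-80034123 (plus) and Ezh1 at chr11:101191115-101226463 (minus). The Dnmt1 and Ezh2 windows above lie inside the annotated gene, before the start of a shorter transcript. One of the 4 strings occurred in 2 of the 10 members, Dnmt1 (in the third of its windows, on the reverse strand) and Suz12, each 219 bases before the start. It also occurred in Uhrf1. Among all genes with a window it occurred in 2.16% of 27025, and among genes of the cycle list in 7 of 35. A match describes letters and shows no binding, and the strings were not found in the windows of the other 8 members.

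**Figure D1:**
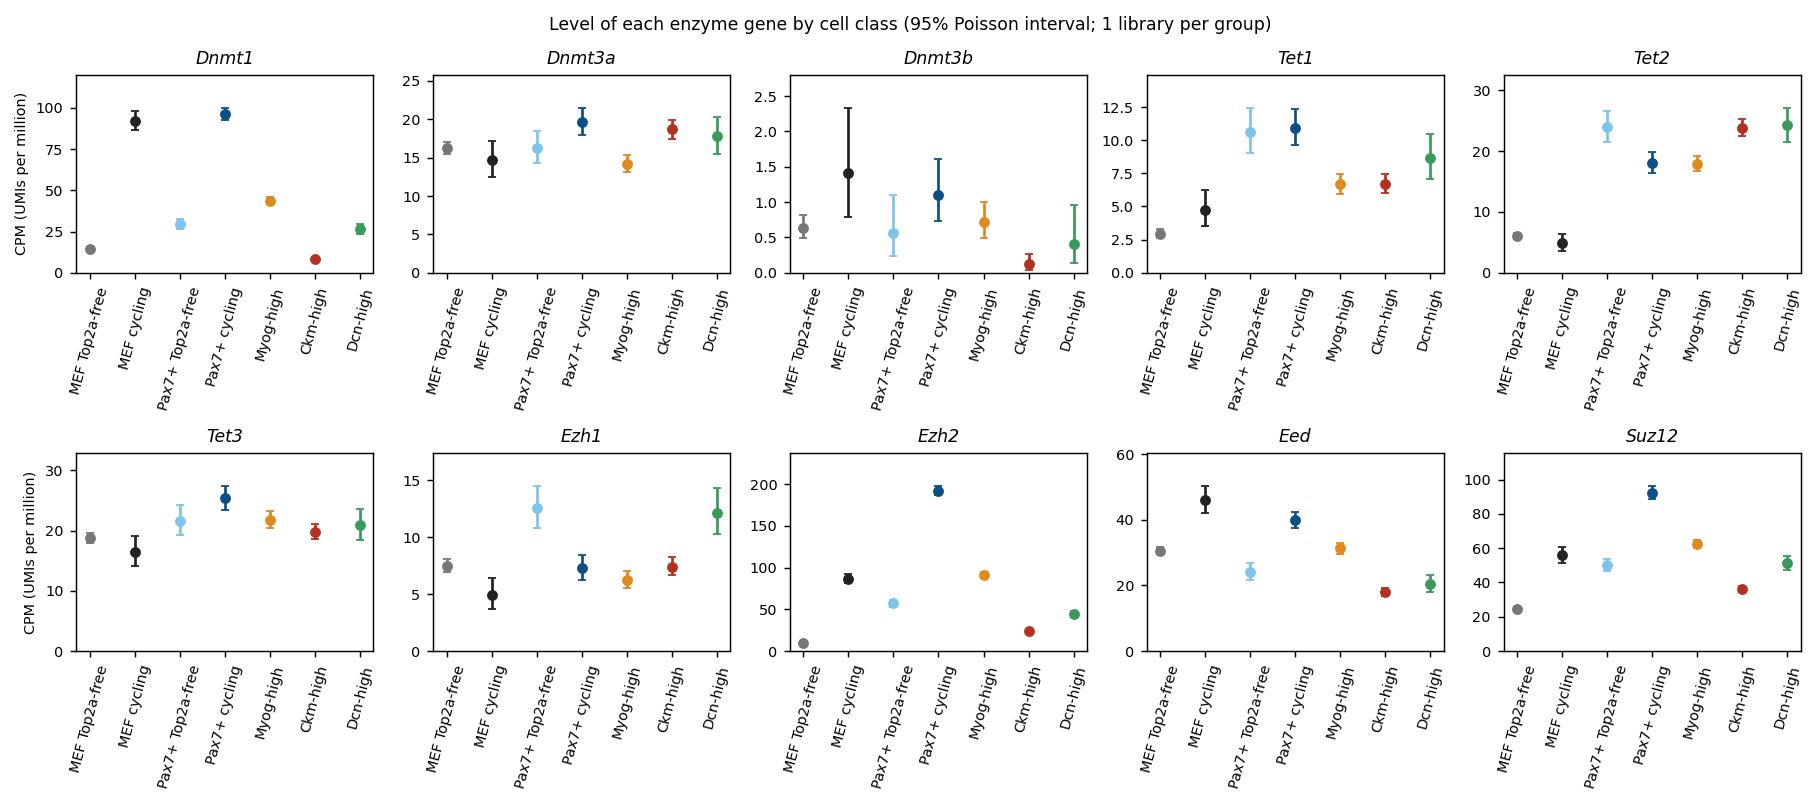
CPM of each of the 10 genes (vertical axes, each from 0) in 7 cell classes, with 95% Poisson intervals of the pooled UMIs. Dnmt1, Ezh2 and Suz12 are highest in cycling Pax7+ cells, Tet1 and Tet2 are lower in both MEF classes than in every iMPC class, and Dnmt3a and Tet3 differ little.

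The maintenance enzyme followed division in both libraries. Dnmt1 stood at 14.6 CPM in Top2a-free MEF, 92.2 in cycling MEF, 29.5 in Top2a-free Pax7+ cells, 96.3 in cycling Pax7+ cells, 43.8 in Myog-high, 8.20 in Ckm-high and 26.4 in Dcn-high cells. The cycling classes of the fibroblasts and of the Pax7+ cells were thus nearly level, and the Ckm-high cells were lowest. Dnmt1 was found in 42.5% of cycling MEF cells and 37.9% of cycling Pax7+ cells when each cell was thinned to 5000 UMIs, against 6.54% and 11.7% of the Top2a-free cells and 4.15% of Ckm-high cells. Its partner Uhrf1 was also highest in the cycling classes: 3.18 CPM in Top2a-free MEF, 44.1 in cycling MEF, 15.2 in Top2a-free Pax7+, 63.9 in cycling Pax7+ and 3.27 in Ckm-high cells. The genes whose pattern over the 6 classes lay nearest to that of Dnmt1, among 9395 searched, were Dnajc9, Stmn1 and Ccdc34, with a root mean square difference of 0.06, 0.12 and 0.15 in log2(CPM + 1).

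The 2 de novo enzymes did not share this pattern. Dnmt3a stayed between 14.2 CPM in Myog-high cells and 19.7 CPM in cycling Pax7+ cells, a range of 1.38-fold over the 6 classes, and only the Myog-high class had an interval apart from its neighbour. Dnmt3b was near the lower end of detection. It gave 85 UMIs in all MEF cells and 126 in all iMPC cells, or 0.72 and 0.54 CPM, and reached at most 1.42 CPM, in cycling MEF. With fewer than 5 CPM in every class, it entered none of the counts below. Dnmt3l, the catalytically inactive cofactor of the de novo enzymes, stood at 9.69 CPM in Dcn-high cells and at no more than 1.82 CPM in any other class.

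Of the 3 erasers, Tet1 and Tet2 were higher in iMPC cells of every class. Tet2 stood at 6.07 CPM in Top2a-free MEF and 4.82 in cycling MEF, and at 24.0 in Top2a-free Pax7+ cells, 18.0 in cycling Pax7+ cells, 17.9 in Myog-high, 23.9 in Ckm-high and 24.2 in Dcn-high cells. The lowest iMPC class was thus well above the higher MEF class, and within iMPC the cycling Pax7+ and the Myog-high cells lay below the other 3 classes. Tet1 was sparser: 2.95 CPM in Top2a-free MEF and 4.73 in cycling MEF, against 10.6 in Top2a-free Pax7+, 10.9 in cycling Pax7+, 6.69 in Myog-high, 6.70 in Ckm-high and 8.63 in Dcn-high cells. The 95% intervals of its cycling MEF level (3.51 to 6.23 CPM) and its Myog-high level (5.96 to 7.48 CPM) overlapped. Tet3 lay between 16.4 CPM in cycling MEF and 25.3 CPM in cycling Pax7+ cells. Its difference between all iMPC cells and all MEF cells was 0.22 on the log2 scale (95% interval 0.15 to 0.29).

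Within PRC2, the catalytic subunit Ezh2 had the widest range over the 6 classes after Dnmt1, at 10.9-fold. Ezh2 stood at 9.30 CPM in Top2a-free MEF, 86.8 in cycling MEF, 57.2 in Top2a-free Pax7+, 193 in cycling Pax7+, 91.7 in Myog-high, 23.4 in Ckm-high and 43.9 in Dcn-high cells. Unlike Dnmt1, it was not level in the cycling classes of the fibroblasts and the Pax7+ cells. After thinning, 61.8% of cycling Pax7+ cells and 10.6% of Ckm-high cells had an Ezh2 UMI, against 35.8% of cycling MEF and 4.30% of Top2a-free MEF cells. Free RNA, estimated from iMPC barcodes of 200 to 600 UMIs, would put an Ezh2 UMI in 0.506% of cells. The genes nearest to Ezh2 were Cenpw, Hmgb3 and Hirip3, at 0.14, 0.18 and 0.20.

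The paralog Ezh1 went the other way. Ezh1 stood at 7.48 CPM in Top2a-free MEF, 4.91 in cycling MEF, 12.5 in Top2a-free Pax7+, 7.24 in cycling Pax7+, 6.28 in Myog-high, 7.42 in Ckm-high and 12.2 in Dcn-high cells. It was highest in Top2a-free Pax7+ and Dcn-high cells and lower in the cycling than in the Top2a-free cells of both libraries. The ratio of Ezh1 to Ezh2 UMIs, which depends on how well each RNA is captured and is read here only between classes, was 0.805 in Top2a-free MEF and 0.0566 in cycling MEF. In iMPC it was 0.219 in Top2a-free Pax7+, 0.0376 in cycling Pax7+, 0.0685 in Myog-high, 0.317 in Ckm-high and 0.277 in Dcn-high cells. The ratio was lowest in the cycling class of each library.

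Suz12 and Eed, the 2 core subunits without catalytic activity, were not alike. Suz12, which holds the complex together, stood at 24.5 CPM in Top2a-free MEF, 56.0 in cycling MEF, 50.1 in Top2a-free Pax7+, 92.5 in cycling Pax7+, 62.2 in Myog-high, 36.2 in Ckm-high and 51.3 in Dcn-high cells. Eed, which reads the methylated histone, stood at 30.5 CPM in Top2a-free MEF, 46.0 in cycling MEF, 24.2 in Top2a-free Pax7+, 39.9 in cycling Pax7+, 31.3 in Myog-high, 17.8 in Ckm-high and 20.4 in Dcn-high cells. Suz12 was thus higher in the Pax7+ cells than in the matching MEF cells, and Eed was lower in them, although its intervals in the cycling cells of both libraries (42.0 to 50.3 and 37.4 to 42.5 CPM) overlapped.

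Counted over whole libraries, 4 of the 9 members with at least 5 CPM were at least 2-fold higher in iMPC than in MEF, where 15.6% of all 10276 such genes were. These were Ezh2 (91.2 against 17.6 CPM, log2 ratio 2.37, 95% interval 2.31 to 2.44), Tet2 (20.6 against 6.01 CPM, 1.78), Tet1 (8.49 against 3.13 CPM, 1.44) and Suz12 (61.0 against 28.3 CPM, 1.11). Dnmt1 lay just inside the threshold at 0.97 (45.3 against 23.0 CPM). None was 2-fold lower, as 21.8% of genes were. The median ratio of the members was 0.97, and that of all genes tested was -0.17. Since dividing cells were more frequent in iMPC, these library-wide values mix a difference in the share of dividing cells with differences within classes.

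Of the list of 13 methylation partners, 11 were tested and 4 were 2-fold higher in iMPC: Uhrf1, the thymine DNA glycosylase Tdg (32.6 against 15.8 CPM), Gadd45a (265 against 17.2 CPM), a stress gene tied to demethylation, and the muscle-expressed Apobec2 (49.6 against 0.0169 CPM). Of 8 PRC2 partners, 6 were tested. Jarid2, a subunit that helps PRC2 reach its targets, was higher (22.3 against 8.53 CPM), and Phf1, which ties PRC2 to trimethylated lysine 36, was lower (5.56 against 14.5 CPM). Of 22 PRC1 genes, 20 were tested, none was 2-fold higher, and the chromobox gene Cbx6 (10.5 against 33.7 CPM) and Scmh1 (10.6 against 24.6 CPM) were lower. The PRC1 list had a median log2 ratio of -0.25, against -0.17 for all genes, and 9 of its 20 tested genes lay above the median of all genes. Among 15 methyltransferases of other lysines, Suv39h1, Suv39h2 and Nsd2 were 2-fold higher and 2 were lower, among them the lysine 9 enzyme Ehmt2 (25.9 against 55.6 CPM). The 3 higher genes were also at least 2-fold higher in cycling than in Top2a-free Pax7+ cells. The demethylases of lysine 27, Kdm6a (10.3 against 7.51 CPM) and Kdm6b (47.5 against 41.5 CPM), were within the threshold.

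The next comparison set cycling against Top2a-free cells inside each library. In Pax7+ cells, 2 of 9 members tested were 2-fold higher in cycling cells, where 6.64% of all genes were: Ezh2 (log2 ratio 1.75, 95% interval 1.64 to 1.86) and Dnmt1 (1.71, 1.56 to 1.86). Suz12 (0.88) and Eed (0.72) were higher with intervals above 0 but inside the threshold, Ezh1 (-0.79, -1.10 to -0.48) and Tet2 (-0.41, -0.62 to -0.21) were lower, and none was 2-fold lower, as 6.46% of genes were. In MEF, 3 of 8 members tested were 2-fold higher in cycling cells, where 7.84% of all genes were: Ezh2 (3.22, 3.09 to 3.36), Dnmt1 (2.66, 2.54 to 2.78) and Suz12 (1.19, 1.06 to 1.32). Ezh1 was again lower (-0.61, -1.04 to -0.20) and none was 2-fold lower, as 1.51% of genes were. The ratios of Ezh2 and Dnmt1 were larger in MEF, where the Top2a-free cells started from a lower level. The difference between the libraries was not tested, and the Top2a-free cells of MEF also held fewer cycle UMIs.

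**Figure D2:**
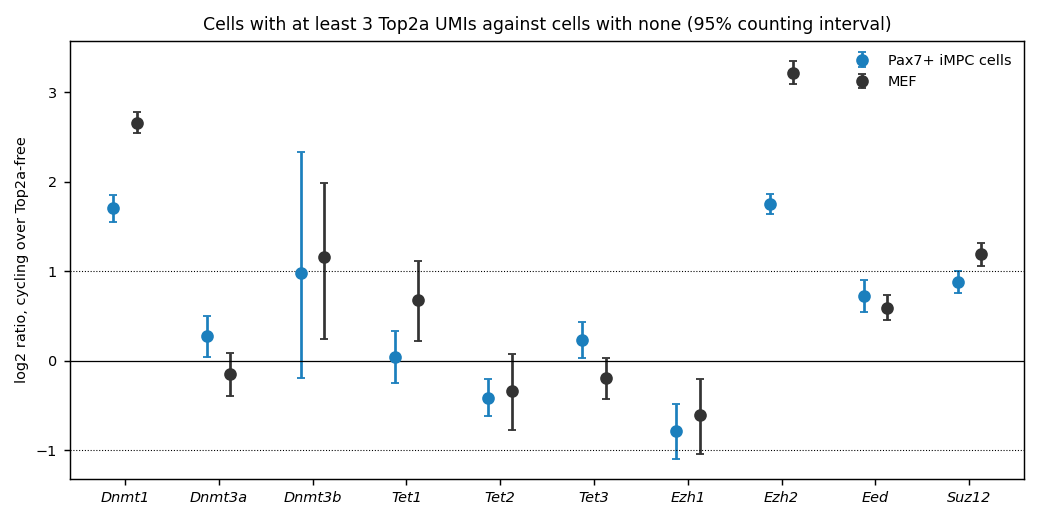
Log2 ratio of cycling over Top2a-free cells for each of the 10 genes (vertical axis), in Pax7+ iMPC cells (blue) and MEF (black), with 95% counting intervals and dotted lines at 2-fold. Dnmt1 and Ezh2 lie above 2-fold in both libraries and Ezh1 lies below 0 in both.

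Within dividing Pax7+ cells the members differed by phase. Cells with at least 3 UMIs of the S-phase gene Rrm2 and none of the mitotic gene Ccnb1 were set against cells with the reverse. Dnmt1 was higher in the Rrm2 cells by 1.23 on the log2 scale (95% interval 0.99 to 1.48) and Uhrf1 by 1.10. Ezh2 differed by 0.28 (0.12 to 0.45), so that it was spread more evenly over the cycle than Dnmt1. Suz12 (0.54) and Eed (0.55) lay between them, and Ezh1 was lower (-0.73, -1.47 to -0.02). In MEF only 93 and 30 cells met the 2 rules. Dnmt1 there differed by 0.90 (0.26 to 1.59) and Ezh2 by 0.76 (0.17 to 1.40), intervals that overlap widely.

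To compare fibroblasts with iMPC classes at like cycle activity, cells were grouped by their UMIs of the cycle list after thinning to 5000 UMIs. Cells with none after thinning are called cells without cycle UMIs below, but their full counts still held 140 CPM of the cycle list in MEF, 197 in Pax7+, 151 in Myog-high, 121 in Ckm-high and 173 in Dcn-high cells, so they were neither free of cycle RNA nor fully matched. In cells with none, Ezh2 stood at 7.19 CPM in 1822 MEF cells, 42.8 in 153 Pax7+ cells, 24.4 in 296 Myog-high, 16.9 in 463 Ckm-high and 25.1 in 130 Dcn-high cells. Each iMPC class was above MEF, and the Pax7+ cells were 5.95-fold higher (log2 2.57, 95% interval 2.23 to 2.90). In cells with 10 or more cycle UMIs, Ezh2 stood at 189 CPM in Pax7+ cells, above the 81.2 CPM of MEF by 1.22 on the log2 scale (1.12 to 1.32).

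Dnmt1 behaved differently in the same groups. With 10 or more cycle UMIs it stood at 94.0 CPM in Pax7+ cells and 83.1 CPM in MEF, and with none at 17.4 and 12.0 CPM, a log2 ratio of 0.53 (0.05 to 0.99). It was lower in cells without cycle UMIs that were Myog-high (5.76 CPM) or Ckm-high (4.11 CPM), with log2 ratios to MEF of -1.06 (-1.52 to -0.62) and -1.54 (-1.89 to -1.21). In cells without cycle UMIs, Myog-high and Ckm-high cells thus had less Dnmt1 and more Ezh2 than fibroblasts.

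Tet2 was set apart from both. In cells with no cycle UMI it stood at 6.17 CPM in MEF, 25.0 in Pax7+, 19.7 in Myog-high, 22.4 in Ckm-high and 23.9 in Dcn-high cells, and with 10 or more at 4.57 CPM in MEF and 17.7 in Pax7+ cells. The log2 ratio of Pax7+ cells over MEF was 2.02 (1.59 to 2.43) without cycle UMIs and 1.96 (1.57 to 2.37) with 10 or more. Tet1 had ratios of 1.65 (0.90 to 2.34) and 1.32 (0.91 to 1.75), on 21 UMIs in the Pax7+ cells without cycle UMIs. Suz12 stood at 44.4 CPM against 23.1 CPM without cycle UMIs, a log2 ratio of 0.94 (0.64 to 1.23), and Eed at 23.4 CPM against 29.7 CPM, -0.34 (-0.75 to 0.04). In these cells, 3 of 9 members were 2-fold higher in Pax7+ cells than in MEF (Ezh2, Tet2 and Tet1), where 14.4% of all genes were, and none was 2-fold lower, as 17.6% of genes were.

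**Figure D3:**
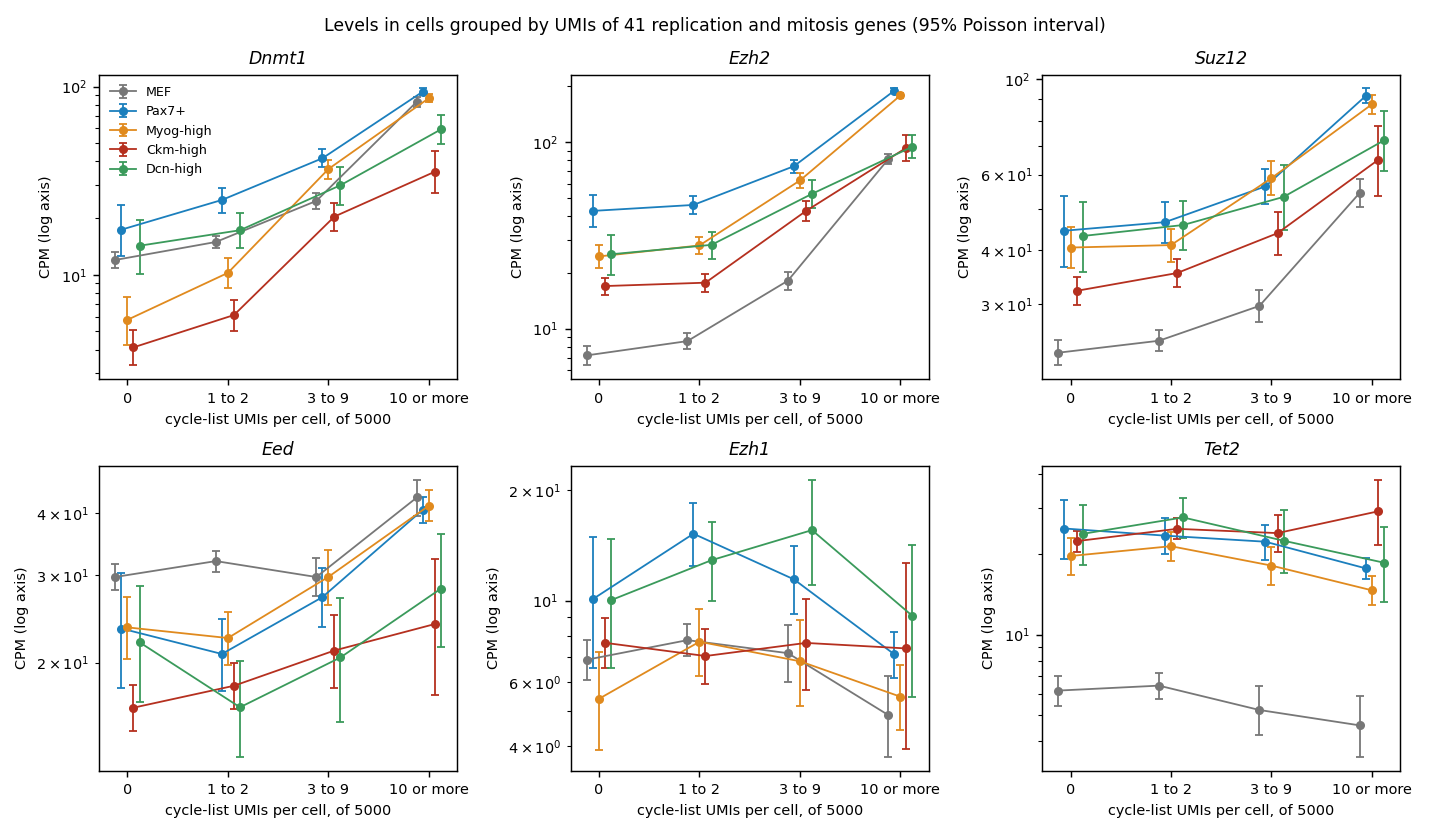
CPM (log axes) of 6 of the genes in cells with 0, 1 to 2, 3 to 9 and 10 or more cycle-list UMIs of 5000, by class, with 95% Poisson intervals. Dnmt1 lies at 83.1 and 94.0 CPM in MEF and Pax7+ cells in the highest group, Ezh2 stays lower in MEF than in Pax7+ cells in every group, and Tet2 is lower in MEF than in all iMPC classes in every group, at 17.7 CPM in Pax7+ cells with 10 or more cycle UMIs against 25.0 with none.

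With cells split by Top2a in place of the cycle list, 5 of 9 members were 2-fold higher in Top2a-free Pax7+ cells than in Top2a-free MEF, where 13.6% of all genes were. They were Ezh2 (log2 2.62), Tet2 (1.98), Tet1 (1.85), Suz12 (1.03) and Dnmt1 (1.02), the last 2 close to the threshold. None was 2-fold lower, as 18.6% of genes were. Suz12 and Dnmt1 were not past 2-fold in the cells without cycle UMIs after thinning. The PRC2 partner Jarid2 was also higher here (34.7 against 8.49 CPM, 2.03), and Uhrf1 stood at 15.2 against 3.18 CPM.

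**Figure D4:**
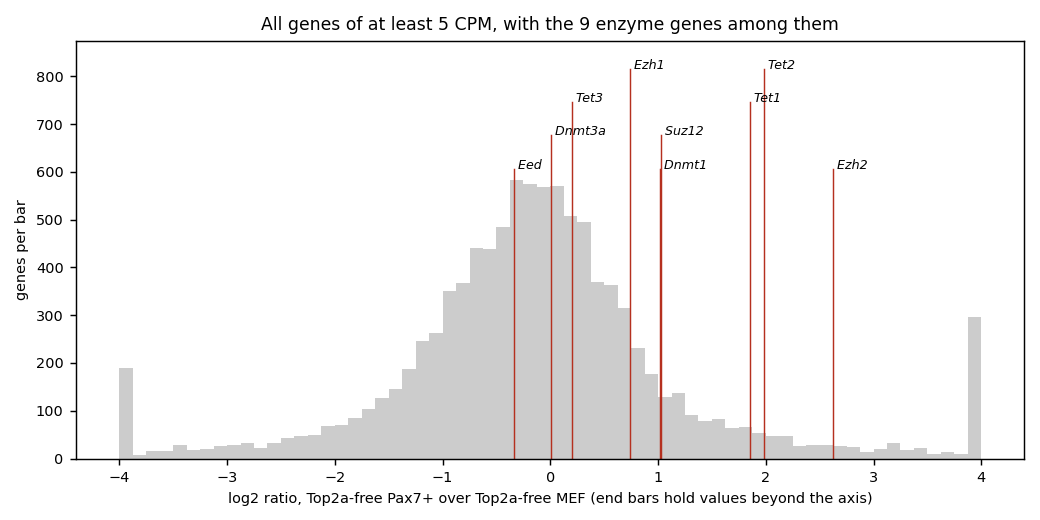
Number of genes (vertical axis) by log2 ratio of Top2a-free Pax7+ over Top2a-free MEF cells (horizontal axis), for all genes of at least 5 CPM in either class, with red lines at the 9 members among them. Ezh2 lies at 2.62, Tet2 at 1.98 and Tet1 at 1.85, to the right of most genes, and Dnmt3a and Tet3 lie near the middle.

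From Top2a-free Pax7+ cells to Myog-high cells, none of the 9 members tested was past 2-fold in either direction, where 10.9% of all genes were higher and 16.6% lower. The nearest was Ezh1, 1.99-fold lower in Myog-high cells (95% interval of the log2 ratio -1.27 to -0.72), just inside the threshold. Ezh2 (0.68, 0.57 to 0.79) and Dnmt1 (0.57, 0.42 to 0.72) were higher in Myog-high cells. The cycle list moved the same way, from 673 to 1926 CPM, so many Myog-high cells were still in the cycle. Within cells without cycle UMIs, here with all Pax7+ cells whatever their Top2a count, the direction of both was the reverse: Ezh2 stood at 24.4 CPM in Myog-high and 42.8 in Pax7+ cells (-0.81, -1.16 to -0.46), and Dnmt1 at 5.76 and 17.4 CPM (-1.59, -2.22 to -0.96). Dnmt1 was then the only member past 2-fold lower, as 27.4% of genes were, and none was 2-fold higher, as 14.1% of genes were.

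From Myog-high to Ckm-high cells, 2 of 9 members were 2-fold lower, where 15.1% of all genes were, and none was 2-fold higher, as 6.52% were. Dnmt1 was 8.20 against 43.8 CPM (log2 -2.42, 95% interval -2.58 to -2.26) and Ezh2 23.4 against 91.7 CPM (-1.97, -2.06 to -1.87). Eed (-0.81) and Suz12 (-0.78) were lower inside the threshold, and Tet2 (0.41, 0.28 to 0.54) and Dnmt3a (0.39, 0.25 to 0.54) were higher inside it. The median over all genes was -0.25. The cycle list was 317 CPM in Ckm-high and 1926 CPM in Myog-high cells. In cells of both classes without cycle UMIs, no member was past 2-fold, where 2.02% of genes were higher and 4.78% lower, and Ezh2 differed by -0.53 (-0.78 to -0.27) and Dnmt1 by -0.49 (-1.01 to 0.06). In the same cells Tet2 differed by 0.19 (-0.08 to 0.45) and Dnmt3a by 0.48 (0.17 to 0.79).

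Ckm-high cells also held more UMIs, with a median of 42148 UMIs against 23858 in Myog-high cells. CPM and UMIs per cell are thus different quantities here. Both classes were set by raw UMI counts, and cells with more UMIs in all reach a minimum of Ckm UMIs more easily. What part these rules have in this difference, and in the UMIs per cell below, was not tested. In UMIs per cell, Ezh2 was at 1.10 in Ckm-high and 2.46 in Myog-high cells, and Dnmt1 at 0.385 and 1.17, so that both were lower on either scale. Suz12 was at 1.70 and 1.67 UMIs per cell and Eed at 0.837 and 0.838, with no difference per cell although both were lower in CPM. Tet2 was at 1.12 and 0.481 UMIs per cell and Dnmt3a at 0.877 and 0.381.

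The change ran along the number of Ckm UMIs. Ezh2 stood at 102 CPM in cells with at least 5 Myog and no Ckm UMI, 72.7 with 1 to 4 Ckm UMIs, 26.6 with 5 to 19, 19.9 with 20 to 49 and 13.0 in the 68 cells with 50 or more. Dnmt1 passed through 49.2, 33.9, 8.84, 7.64 and 5.53 CPM in the same groups. Tet2 went the other way, through 17.2, 20.2, 21.8, 25.9 and 31.8 CPM. In cells without cycle UMIs, the interval of its difference between Ckm-high and Myog-high cells included 0. Ezh1 stayed between 6.56 and 8.56 CPM over the 5 groups. The median UMIs of these groups ran from 23088 to 55640 and the cycle list from 2174 to 189 CPM.

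**Figure D5:**
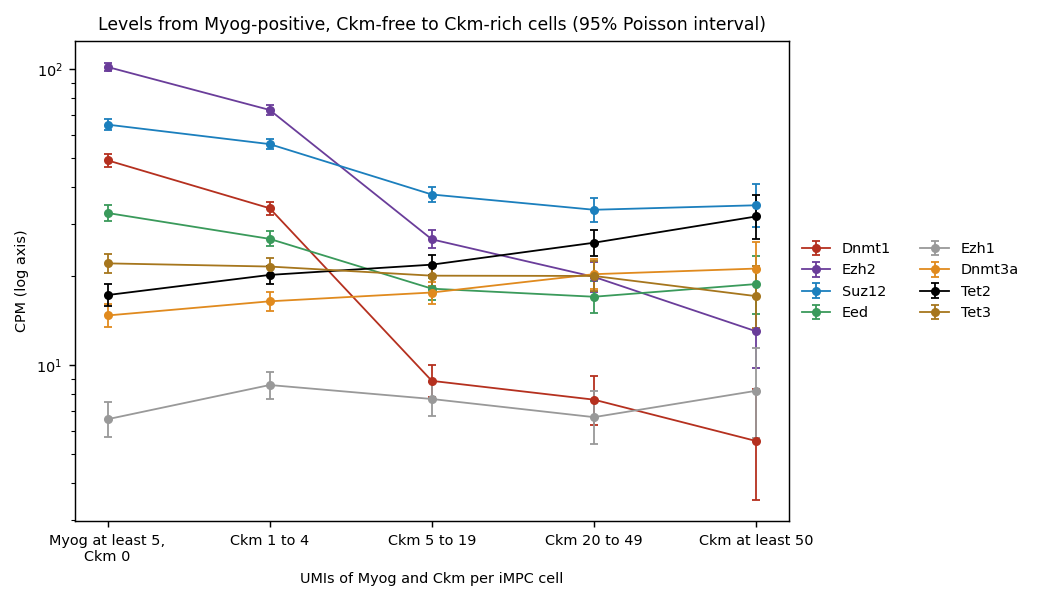
CPM (log axis) of 8 of the genes in iMPC cells grouped by Ckm UMIs, the first group holding cells with at least 5 Myog and no Ckm UMI, with 95% Poisson intervals. Ezh2 goes from 102 to 13.0 CPM and Dnmt1 from 49.2 to 5.53 CPM, while Tet2 goes from 17.2 to 31.8 CPM.

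Set directly against Top2a-free Pax7+ cells, Ckm-high cells had 2 members past 2-fold lower, where 28.9% of all genes were: Dnmt1 (log2 -1.85, 95% interval -2.05 to -1.65) and Ezh2 (-1.29, -1.42 to -1.16). None was 2-fold higher, as 12.8% of genes were. The list medians were -0.47 for the members and -0.42 for all genes, and once the median of all genes is set to 0, Ezh2 lies inside the threshold. Of 11 methylation partners tested, 4 were 2-fold lower and 2 higher, and of 20 PRC1 genes 6 were lower. This contrast and the 2 before it share classes and are not independent of each other. In cells without cycle UMIs, Ezh2 was still 16.9 against 42.8 CPM (-1.34, -1.65 to -1.01) and Dnmt1 4.11 against 17.4 CPM (-2.08, -2.62 to -1.52).

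The Dcn-high cells carry a fibroblast gene. Against Top2a-free Pax7+ cells, none of 9 members was past 2-fold, where 7.86% of all genes were higher and 1.76% lower. The largest difference was that of Ezh2 (-0.38, 95% interval -0.54 to -0.22), and those of Tet2 (0.01, -0.22 to 0.24) and Suz12 (0.03, -0.12 to 0.19) had intervals around 0. The cycle list was higher in the Dcn-high class (991 against 673 CPM), and at like cycle activity Ezh2 lay further below Pax7+ cells: 25.1 against 42.8 CPM without cycle UMIs (-0.77, -1.24 to -0.31) and 94.6 against 189 CPM in cells with 10 or more (95% interval of the log2 ratio -1.21 to -0.79). Dnmt1 in the latter cells was 59.2 against 94.0 CPM (-0.67, -0.94 to -0.41). Against MEF, 3 of 9 members were 2-fold higher, where 14.3% of all genes were: Tet2 (2.01, 1.81 to 2.21), Tet1 (1.46, 1.14 to 1.78) and Ezh2 (1.32, 1.18 to 1.45). None was 2-fold lower, as 13.3% of genes were, and Eed was lower inside the threshold (-0.66, -0.85 to -0.47). In Dcn-high cells without cycle UMIs, Tet2 was 23.9 against 6.17 CPM in MEF (1.95, 1.52 to 2.36) and Ezh2 25.1 against 7.19 CPM (1.80, 1.39 to 2.20). With 10 or more cycle UMIs, on 63 Dcn-high cells, Tet2 was 18.6 against 4.57 CPM (2.03, 1.41 to 2.63), while Ezh2 was 94.6 against 81.2 CPM (0.22, -0.01 to 0.44). The 77 cells shared with the Top2a-free Pax7+ class are 13.9% of Dcn-high cells, and without cells that met 2 rules the counts were the same.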

How the data were processed

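Cells were trypsinised and put through the 10x Genomics 3′ kit, per the labels' protocols. The deposited matrices hold raw UMI counts, and the submitters' processing notes name GRCm38.p6, Cell Ranger 4.0 and Seurat 3.2.3. The MEF matrix lists 6113 barcodes and the iMPC matrix 2707590 with a UMI, so iMPC cells were taken at 8036 UMIs (10% of the 99th percentile of the 10000 largest barcodes). How MEF barcodes were selected is not given in the sources used here. The treatment protocol printed for MEF repeats that of iMPC, and its own treatment label, MEF media, was used. Cells above 20% mitochondrial UMIs were removed. The 2 libraries share 16 barcodes among kept cells.

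Counts were summed by class and scaled to CPM, with exact Poisson 95% intervals and exact conditional intervals for ratios. A gene was tested at 5 CPM or more on the higher side and counted at 2-fold. Shares used cells thinned to 5000 UMIs. The genes most alike were sought over 6 classes (MEF undivided) among genes of at least 10 CPM. Partners are named by largest ratio (up to 4 a list). Ratios and intervals were run on simulated Poisson sums, which checks the calculation only. The simulation holds no spread between cells or libraries, so it cannot show how the intervals cover such spread. No doublets were removed, except in an alternative. The members and lists were chosen with earlier results of these data known. Gene positions are from GENCODE M21. Python 3.11.15, numpy 2.4.6 and scipy 1.17.1 were used.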

Additional observations from a re-analysis of the deposited data

Results flagged for a closer look

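2 members, Dnmt3a and Tet3, had opposite signs in the comparison of cycling with Top2a-free cells. Dnmt3a differed by 0.27 in Pax7+ cells (95% interval 0.04 to 0.50) and by -0.15 in MEF (-0.40 to 0.09) on the log2 scale, and Tet3 by 0.23 (0.03 to 0.43) and -0.19 (-0.43 to 0.03). Each group is 1 library, both MEF intervals include 0, and the difference between the libraries was not tested.

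All 10 members were also counted in the 48846 iMPC barcodes of 200 to 600 UMIs, at levels over the 0.141 CPM that a count of 0 allows. These barcodes are the source of the free RNA estimate and otherwise enter no comparison above. Ezh2 stood at 49.2 CPM there against 91.2 CPM in iMPC cells, Suz12 at 31.9 against 61.0 CPM, Eed at 24.0 against 28.3 CPM and Dnmt3b at 0.24 against 0.54 CPM.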

How the results depend on the processing

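No paired analysis was possible because each group is 1 library. The counts of members past 2-fold and the class orders were recomputed under other settings: 118 values stayed within 1.5 times the reported one and 19 did not. For the counts past 2-fold, this compares their number and not which members they hold. Of the members' log2 ratios, 1034 stayed inside the counting interval and 116 did not, and no member past 2-fold changed sign. Of the members' shares of cells, 11 stayed inside their interval and 229 did not. The settings for shares were other thinning depths, no thinning and a minimum of 2 UMIs. At 1.5-fold the count was 5 for cycling Pax7+ cells, 5 for cycling MEF, 3 for Myog-high against Top2a-free Pax7+ cells, 4 for Ckm-high against Myog-high, 4 for Ckm-high against Top2a-free Pax7+ and 6 for Dcn-high against MEF. The share of all genes past 1.5-fold was not computed, so whether these counts exceed it is not known. Myog-high against Top2a-free Pax7+ cells went from 0 to 1 (Ezh1) with iMPC cells from 5000 UMIs, with the highest doublet scores removed, without mitochondrial and ribosomal genes in the total, by the mean of each cell's CPM, after subtracting free RNA and without cells meeting 2 rules, and to 1 (Tet1) under stricter thresholds. Scaling by the median gene ratio left 1 (Dnmt1) for Ckm-high against Top2a-free Pax7+ cells. There it sets a median log2 ratio of -0.42 to 0, which moves values up. Dnmt1 in iMPC against MEF passed 2-fold under 4 settings, among them that scaling (a median of -0.17 set to 0). Over all settings its log2 ratio ran from -0.82 to 1.38, so its sign was not stable. In Top2a-free Pax7+ cells against MEF, Dnmt1 was inside the threshold under 3 and Suz12 under 1. In cells with no cycle UMI at 5000, applied to each class as defined (so to Top2a-free Pax7+ cells only), a setting chosen after seeing the data, the count was 2 (Dnmt1, Ezh1) for Myog-high against Top2a-free Pax7+ cells, 0 for Ckm-high against Myog-high and 3 for Pax7+ against MEF. For the counts with Pax7+ cells in this setting, the share of all genes was not computed. The class with the highest share of cells stayed the same for 5 of 10 members without thinning and for 5 with a minimum of 2 UMIs. Without thinning, Dnmt3a, Tet1, Tet2, Tet3 and Ezh1 had their highest share in Ckm-high cells, whose median of 42148 UMIs was the largest. For members whose class changed, shares give no order. At 85 and 126 UMIs, Dnmt3b allows no comparison between classes.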

Other observations

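Dnmt3l, at 9.69 CPM in Dcn-high cells and 0.57 CPM in MEF, gave 118 UMIs there, in 95 of 553 cells (17.2%). No cell held more than 4, and the 10 highest cells held 25, so the level did not come from a few cells. The genes whose pattern over the 6 classes lay nearest to a member were Aifm2, Pcmtd2 and Ccdc186 for Ezh1, Cep83, Ttll4 and Lcorl for Suz12, and Hmces, Nup214 and Nelfa for Eed, each with a root mean square difference of at most 0.12.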
